A study of Ovis aries with 8 samples.

Results

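The mitochondrial carriers of the SLC25 family were measured in loin muscle of 8 castrated lambs on 2 diets. All gene symbols that start with SLC25A were taken as members, leaving out SLC25A20, and the deposited table held 33 of them among 11247 genes. The animals were Dorper by Santa Inês crossbreds (Ovis aries). One group received the control diet (CON, n = 4) and the other a diet in which soybean molasses, a sugar-rich co-product of soy processing, made up 20% (SM20, n = 4). The 8 lambs came from a trial of 20, with 10 per diet, and those sequenced were drawn at random. Poly-A RNA of fresh longissimus thoracis was sequenced, and each library is 1 lamb.

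SLC25 proteins sit mostly in the inner mitochondrial membrane, where each moves particular solutes between the matrix and the cytosol. They are built from repeated units that form a single pore, which opens to either side in turn and most often exchanges a solute for another. In muscle the ADP/ATP and phosphate carriers bring in the substrates of ATP synthase and send ATP out, while the aspartate/glutamate and oxoglutarate carriers form the malate-aspartate shuttle that brings reducing equivalents from glycolysis into the matrix. Other members import iron, cofactors, nucleotides and amino acids, and for several the solute is not settled.

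Total counts per library ranged from 8675527 to 11210065. Levels are given in CPM, which is counts divided by a TMM-scaled library size, so that the same gene can be compared between lambs. Different genes cannot be ranked on it, since it is not corrected for transcript length. The tissue label was checked against 9 skeletal muscle markers, of which 8 were in the table. They summed to 91786 to 145298 CPM in CON and 108374 to 113692 CPM in SM20, and 0 of them were at 0 in any lamb.

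By the quasi-likelihood test of edgeR, 0 of the 30 carriers tested passed an adjusted p of 0.05, with a smallest adjusted p of 0.113. Over all 9779 genes tested 0.0511% passed. DESeq2 called 1 carrier, SLC25A11, while it called 5.00% of all 9779 genes, including those without an adjusted p in DESeq2. It gave no adjusted p for SLC25A14, SLC25A15, SLC25A16, SLC25A23, SLC25A35 and SLC25A47, so these could not be called. At an unadjusted p under 0.05 edgeR had 6 carriers, which was 20% of them against 18.3% of all genes. Of these 6, 4 had lower values in SM20 (8.45% of all genes did) and 2 had higher values (9.84%). The share of low p-values among the carriers lay near the background. Their median log2 fold change (SM20 over CON) was -0.15, with 19 of 30 negative, beside a median of 0.01 and 49.3% negative over all genes. The diets did not overlap for 5 carriers, 3 with SM20 below CON and 2 with SM20 above, where the background was 12.2% in either direction, 5.67% below and 6.54% above.

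These counts moved with the libraries and the scaling. At an unadjusted p under 0.05 there were 6 carriers and 18.3% of all genes with all lambs. The carriers became 4 without CON lamb 3 (16.6% of all genes) or CON lamb 4 (15.0%). They became 3 without SM20 lamb 4 (16.2%), and 7 without CON lamb 1 (14.9%) or SM20 lamb 3 (15.1%). With library size alone there were 2 lower and 3 higher carriers, in place of 4 and 2, and 16.2% of all genes in either direction. The median log2 fold change of the carriers was -0.10 without CON lamb 4, where that of all genes was 0.01. With library size alone the carrier median was -0.09, while the median of all genes moved from 0.01 to 0.05.

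**Figure D1:**
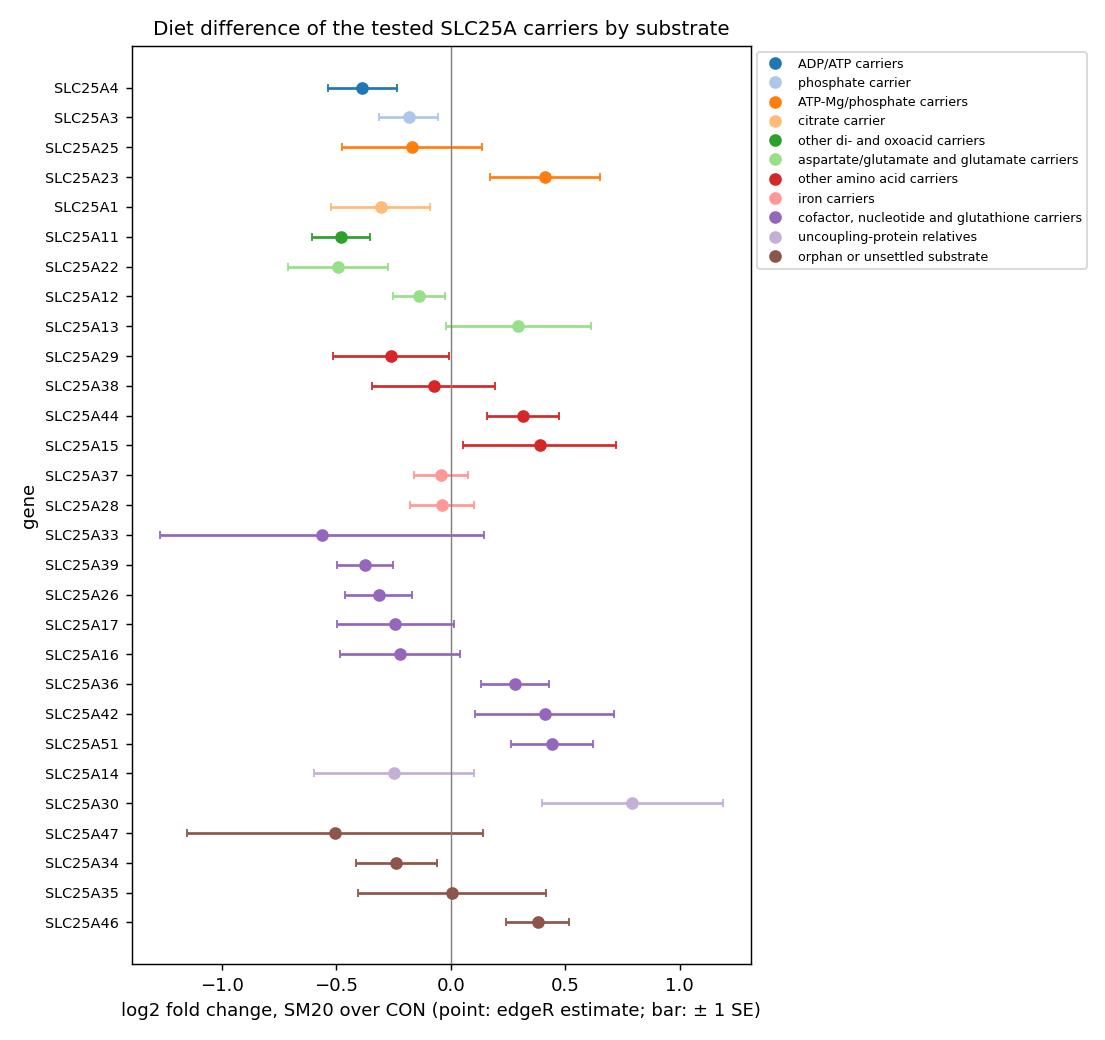
Log2 fold change of SM20 over CON for 29 of the 30 tested carriers, grouped and coloured by substrate; points are edgeR estimates and bars are 1 SE. The ADP/ATP, phosphate, citrate and oxoglutarate carriers lie left of 0, both iron carriers lie next to 0, and the cofactor, amino acid and orphan classes spread to both sides.

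SLC25A4 encodes the ADP/ATP exchanger that is the main form of heart and skeletal muscle. It held 51.7% to 61.1% of the counts of the 33 members in a lamb. Its level was 3689, 2814, 3805 and 4411 CPM in CON lambs 1 to 4, and 2938, 2881, 2874 and 2568 CPM in SM20 lambs 1 to 4. Of the CON lambs, 3 lay above every SM20 lamb, while CON lamb 2 lay among the SM20 lambs. The means were 3679.6 ± 658 CPM and 2815 ± 167 CPM (SD, n = 4 per diet), with a log2 fold change of -0.39 ± 0.15 (SE) and an adjusted p of 0.212 by edgeR. The unadjusted p was 0.0269, and it stayed under 0.05 in 5 of the 8 fits that left out 1 lamb. SLC25A4 was the sole ADP/ATP carrier in the counts used here, and reads of such closely related genes can be assigned to the wrong copy.

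SLC25A3, the phosphate carrier, had 1244, 1074, 1148 and 1315 CPM in the CON lambs and 1019, 995, 971 and 1221 CPM in the SM20 lambs. The diets overlapped, since SM20 lamb 4 lay above 2 CON lambs. The means of 1195 ± 106 CPM and 1051 ± 115 CPM gave a log2 fold change of -0.18 ± 0.13 (SE), with a 95% interval of -0.47 to 0.10 and an adjusted p of 0.476 by edgeR.

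The ATP-Mg/phosphate carriers let adenine nucleotides enter or leave the matrix in net amounts and respond to calcium. SLC25A25 had 104, 34.0, 47.8 and 46.7 CPM in the CON lambs and 48.5, 63.4, 56.3 and 38.5 CPM in the SM20 lambs. CON lamb 1 had more than 1.5 times the level of any other lamb. With all lambs its log2 fold change was -0.17 ± 0.31 (SE, adjusted p = 0.814 by edgeR) and without CON lamb 1 it was 0.27, so the direction rests on that lamb. SLC25A23 had 0.41 ± 0.24 (SE), with overlapping diets, and 0.26 without CON lamb 2.

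**Figure D2:**
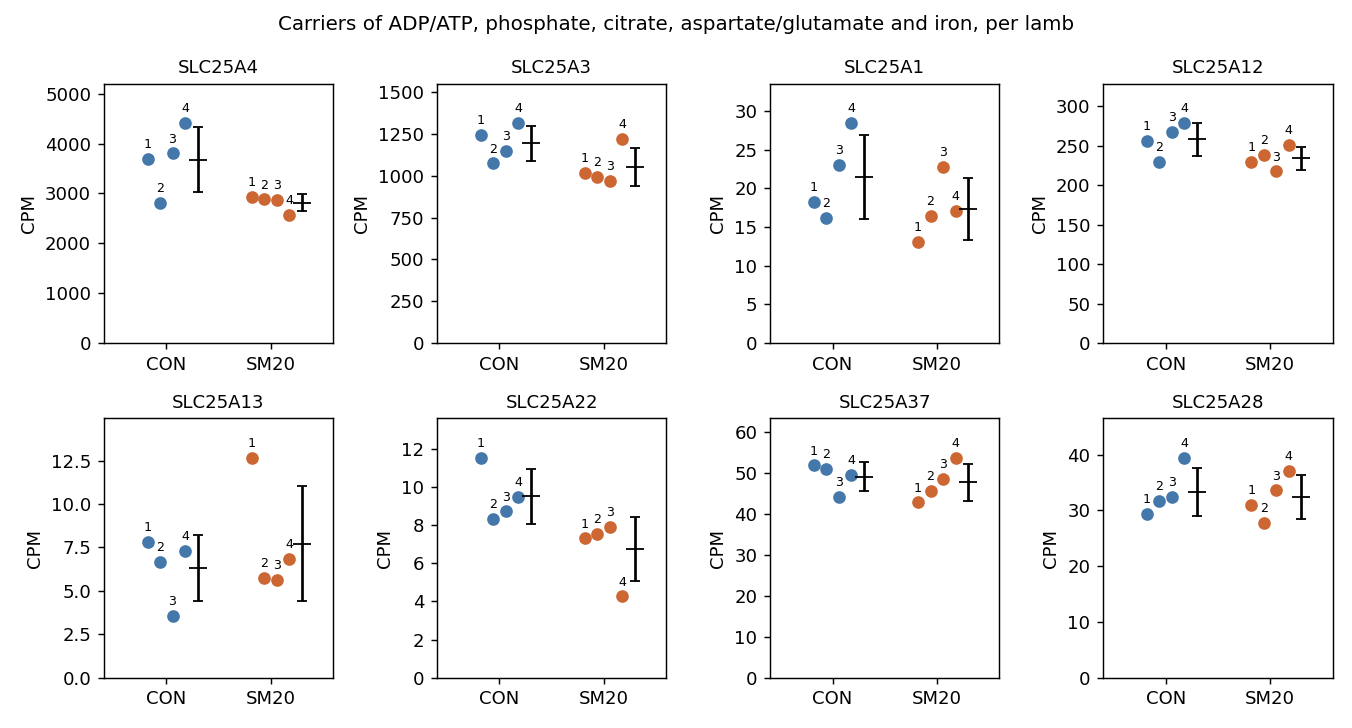
Level in CPM (linear axes from 0) of the carriers of ADP/ATP, phosphate, citrate, aspartate/glutamate and iron; each point is a lamb, numbered within its diet, and the black bar is the mean with 1 SD (n = 4). SLC25A22 is the sole panel whose diets do not overlap, and both iron carriers have nearly the same mean in both diets.

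SLC25A1 exports citrate, from which the cytosol makes acetyl-CoA for fatty acid synthesis. Its level was 18.2, 16.2, 23.0 and 28.5 CPM in the CON lambs and 13.1, 16.4, 22.8 and 17.1 CPM in the SM20 lambs. The diets overlapped across most of their range, although the highest value came from CON and the lowest from SM20. SLC25A1 had a log2 fold change of -0.31 ± 0.22 (SE), with a 95% interval of -0.78 to 0.17 and an adjusted p of 0.479 by edgeR. It was -0.15 without CON lamb 4, -0.47 without SM20 lamb 3 and -0.52 with slow-fibre level in the model, where the unadjusted p was 0.0298 in place of 0.183.

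SLC25A11 exchanges oxoglutarate for malate and is the malate entry step of the malate-aspartate shuttle. It had the smallest p of the carriers. Its level was 381, 320.4, 378 and 433 CPM in the CON lambs, and 254, 262, 297 and 270.0 CPM in the SM20 lambs. Every SM20 lamb lay below every CON lamb. The means were 378 ± 45.9 CPM and 271 ± 18.9 CPM, 1.40-fold higher in CON, with a log2 fold change of -0.48 ± 0.13 (SE). The adjusted p was 0.113 by edgeR and 0.00985 by DESeq2, so the call depends on the tool. The unadjusted edgeR p was 0.00287 and stayed under 0.05 without any of the 8 lambs in turn. SLC25A21, the oxoadipate carrier, had 2 to 10 counts per library and was not tested.

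Slow-fibre genes had negative fold changes beside these carriers, with a median log2 fold change of -0.56 over 9 of 9 tested genes, of which 0 passed by edgeR or DESeq2 and 3 had an unadjusted p under 0.05 with lower values, where 8.45% of all genes did. Their summed level ran from 10975 to 26337 CPM in CON, with CON lamb 1 the highest, and from 11345 to 16142 CPM in SM20. The table held 9 of the 10 listed slow-fibre genes and 8 of the 11 listed fast-fibre genes. Fast-fibre genes were negative too, in 7 of 7 tested, with a median log2 fold change of -0.16. Of them 1 had an unadjusted p under 0.05, with lower values, beside 8.45% of all genes. With each lamb's slow-fibre level in the model, the log2 fold change was -0.53 for SLC25A11, -0.44 for SLC25A4 and -0.35 for SLC25A39. In that fit 5 carriers had an unadjusted p under 0.05 in place of 6, and 15.9% of all genes in place of 18.3%. SLC25A11, SLC25A4 and SLC25A39 kept it, and SLC25A22, SLC25A46 and SLC25A51 lost it. SLC25A1 and SLC25A36 (unadjusted p 0.0298 and 0.0452) gained it. In bulk muscle, fewer cells of a type and less RNA per cell cannot be told apart.

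Aspartate/glutamate exchange, the step of the shuttle that exports aspartate, is carried out by SLC25A12 (aralar) and SLC25A13 (citrin). SLC25A12 had 256, 229, 268 and 279 CPM in the CON lambs and 229, 239, 218 and 251 CPM in the SM20 lambs. The ranges overlapped, and the log2 fold change was -0.14 ± 0.11 (SE), with a 95% interval of -0.39 to 0.11 (adjusted p = 0.549 by edgeR). SLC25A13 had 7.81, 6.68, 3.55 and 7.29 CPM in the CON lambs and 12.7, 5.74, 5.65 and 6.85 CPM in the SM20 lambs. Its log2 fold change of 0.30 ± 0.32 (SE) rests on SM20 lamb 1, without which it was -0.05. The count of SLC25A12 was 18.1 times that of SLC25A13 in SM20 lamb 1, 75.5 times in CON lamb 3 and 32.8 to 41.6 times in the other 6 lambs, without correction for length.

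SLC25A22 imports glutamate with a proton. Its level was 11.5, 8.32, 8.73 and 9.48 CPM in the CON lambs, and 7.31, 7.53, 7.91 and 4.27 CPM in the SM20 lambs. The diets did not overlap, and SM20 lamb 4 lay well below the rest of its group. The log2 fold change was -0.49 ± 0.22 (SE), the adjusted p 0.264 by edgeR, and the unadjusted p 0.0457. Without SM20 lamb 4 the log2 fold change was -0.33, and the unadjusted p stayed under 0.05 in 2 of the 8 fits that left out 1 lamb. It was -0.39, with an unadjusted p of 0.143, with slow-fibre level in the model.

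The other amino acid carriers had 16 to 116 counts per library. SLC25A44, which imports branched-chain amino acids in mouse brown fat, had 7.24, 7.35, 9.02 and 8.65 CPM in the CON lambs and 10.2, 10.3, 10.6 and 9.04 CPM in the SM20 lambs. All SM20 lambs lay above all CON lambs, although SM20 lamb 4 and CON lamb 3 were nearly equal. The log2 fold change was 0.32 ± 0.16 (SE), and the adjusted p was 0.311 by edgeR. SLC25A15, the ornithine carrier, had 0.39 ± 0.33, SLC25A29, a carrier of basic amino acids, -0.26 ± 0.25, and SLC25A38, linked to glycine supply for haem synthesis, -0.08 ± 0.27. The diets overlapped for these 3. Single lambs moved them: SLC25A15 was 0.13 without CON lamb 1, SLC25A29 -0.07 without SM20 lamb 4, and SLC25A38 0.07 without CON lamb 4 and -0.28 without CON lamb 1.

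The iron carriers, which feed haem and iron-sulphur cluster synthesis, showed the smallest differences of any class named in the comparison by substrate. SLC25A37 (mitoferrin 1), the main form of red cell precursors in mouse and zebrafish, had 51.8, 50.9, 44.1 and 49.5 CPM in the CON lambs. It had 42.8, 45.7, 48.5 and 53.6 CPM in the SM20 lambs. The values of the diets interleaved, and the log2 fold change was -0.04 ± 0.12 (SE), with a 95% interval of -0.30 to 0.22 (adjusted p = 0.885 by edgeR). SLC25A28 (mitoferrin 2), the widely expressed form, had 29.4, 31.7, 32.4 and 39.4 CPM in the CON lambs and 30.9, 27.7, 33.6 and 37.0 CPM in the SM20 lambs. Its log2 fold change was -0.04 ± 0.14 (SE), with a 95% interval of -0.35 to 0.27 (adjusted p = 0.910 by edgeR). The sign of both small values turned with library size alone. The count of SLC25A37 was 1.26 to 1.76 times that of SLC25A28 in the CON lambs and 1.38 to 1.65 times in the SM20 lambs. Of 6 erythroid markers only HBB was in the table, at 0.39 to 1.88 CPM in CON. In SM20 it had 17.0 CPM in lamb 4 and 0.50 to 1.59 CPM in the other lambs. The annotation lists SLC25A37 also as a synonym of another locus, so the reads of SLC25A37 carry an uncertainty of assignment.

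Among 9 carriers of cofactors, nucleotides and glutathione, 5 had negative and 4 positive log2 fold changes. SLC25A39, which imports glutathione, had 86.2, 72.2, 69.9 and 80.7 CPM in the CON lambs and 53.6, 65.5, 62.6 and 56.6 CPM in the SM20 lambs. Every SM20 lamb lay below every CON lamb. The means were 77.2 ± 7.55 CPM and 59.6 ± 5.42 CPM, with a log2 fold change of -0.37 ± 0.12 (SE) and an adjusted p of 0.153 by edgeR and 0.0646 by DESeq2. The unadjusted p of 0.0108 stayed under 0.05 without any of the 8 lambs in turn.

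SLC25A51, which imports NAD+, lay on the other side of 0. Its level was 6.67, 6.48, 7.67 and 8.86 CPM in the CON lambs and 10.2, 9.51, 8.59 and 12.0 CPM in the SM20 lambs. The groups overlapped only in that CON lamb 4 lay above SM20 lamb 3. The log2 fold change was 0.44 ± 0.18 (SE), with an adjusted p of 0.227 by edgeR. Its unadjusted p of 0.0310 stayed under 0.05 in 3 of the 8 fits that left out 1 lamb, and the log2 fold change was 0.35, with an unadjusted p of 0.100, with slow-fibre level in the model.

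In the same class SLC25A26, the S-adenosylmethionine carrier, had -0.32 ± 0.15 (SE), SLC25A36, a pyrimidine nucleotide carrier, 0.28 ± 0.15, and SLC25A42, which takes up coenzyme A, 0.41 ± 0.30. The peroxisomal carrier SLC25A17 had -0.24 ± 0.26 and SLC25A16 -0.22 ± 0.26, with errors larger than the differences. When a lamb was left out, SLC25A17 ran from -0.44 without CON lamb 1 to -0.10 without CON lamb 4. SLC25A16 ran from -0.30 without SM20 lamb 3 to -0.04 without CON lamb 3. SLC25A42 ran from 0.07 without SM20 lamb 3 to 0.57 without SM20 lamb 4.

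**Figure D3:**
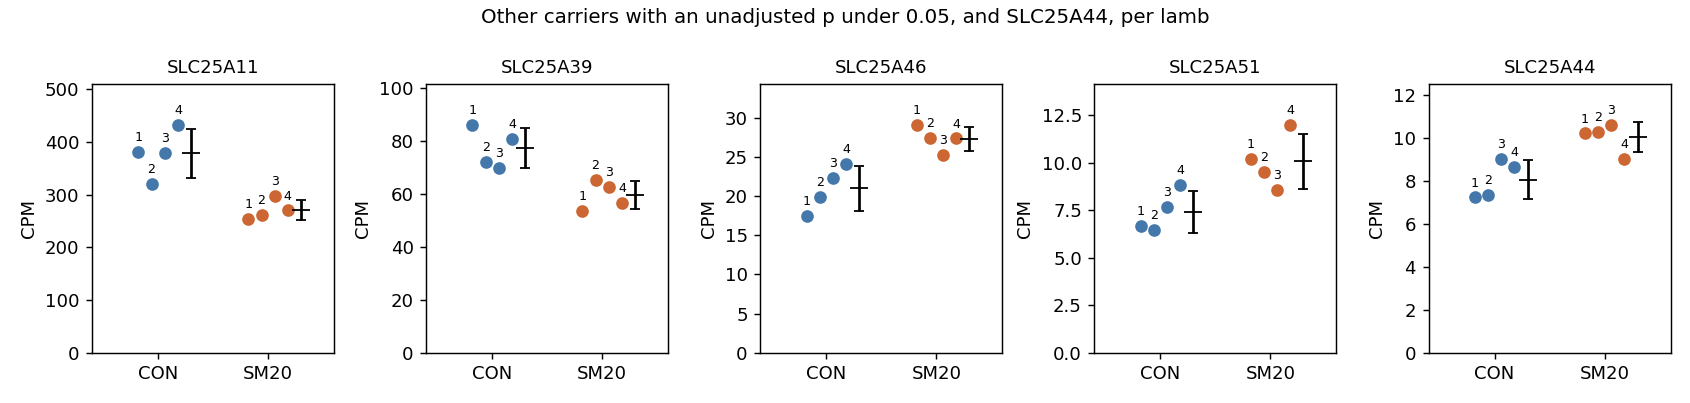
Level in CPM (linear axes from 0) of SLC25A11, SLC25A39, SLC25A46, SLC25A51 and SLC25A44; each point is a lamb, numbered within its diet, and the black bar is the mean with 1 SD (n = 4). SM20 lies wholly below CON for SLC25A11 and SLC25A39, wholly above it for SLC25A46 and SLC25A44, and overlaps it narrowly for SLC25A51.

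SLC25A46 is an unusual member that sits in the outer membrane and takes part in mitochondrial dynamics, with no settled solute. Its level was 17.5, 19.9, 22.3 and 24.2 CPM in the CON lambs and 29.2, 27.4, 25.3 and 27.4 CPM in the SM20 lambs. Every SM20 lamb lay above every CON lamb. The means were 21.0 ± 2.89 CPM and 27.3 ± 1.57 CPM, 1.30-fold higher in SM20, with a log2 fold change of 0.38 ± 0.14 (SE) and an adjusted p of 0.182 by edgeR and 0.112 by DESeq2. The unadjusted p of 0.0181 stayed under 0.05 without any of the 8 lambs in turn. With slow-fibre level in the model the log2 fold change was 0.28 and the unadjusted p 0.0714.

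Of the other orphans, SLC25A34 had 124, 101, 104 and 177 CPM in the CON lambs and 98.3, 106, 114 and 111 CPM in the SM20 lambs. Apart from CON lamb 4 the groups covered nearly the same range. Its log2 fold change of -0.24 ± 0.18 (SE, adjusted p = 0.504 by edgeR) was -0.04 without that lamb and -0.34 without CON lamb 2. SLC25A35 had 0.01 ± 0.41 and SLC25A47 -0.51 ± 0.65, both at 0.48 to 4.06 CPM. When a lamb was left out, SLC25A35 ran from -0.27 without CON lamb 2 to 0.26 without CON lamb 4, and SLC25A47 from -1.49 without SM20 lamb 1 to -0.12 without CON lamb 4. SLC25A53 had 1 to 9 counts per library and was not tested.

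Of the relatives of the uncoupling proteins, SLC25A30 had 162, 71.5, 124 and 155 CPM in the CON lambs and 414, 217, 92.9 and 164 CPM in the SM20 lambs. SM20 lambs 1 and 2 were the highest of all 8, and SM20 lamb 3 lay below 3 CON lambs. This gave a log2 fold change of 0.79 ± 0.40 (SE), the furthest above 0 of the 30 carriers, with an adjusted p of 0.310 by edgeR. It was 0.30 without SM20 lamb 1 and 1.05 without SM20 lamb 3, where the unadjusted edgeR p was 0.0114. SLC25A14 had -0.25 ± 0.35, and was -0.07 without SM20 lamb 1 and -0.48 without SM20 lamb 4. SLC25A27 was not tested at 4 to 18 counts per library.

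The widest span over the 8 lambs among the 30 carriers was that of SLC25A33, a pyrimidine nucleotide carrier that insulin-like growth factor signalling induces in human cells. It is outside the rule for full values and was chosen after its values were seen. Its level was 138, 61.0, 33.1 and 20.2 CPM in the CON lambs, and 83.7, 64.1, 13.0 and 9.23 CPM in the SM20 lambs, a 14.9-fold span over the 8 lambs. Both diets covered most of that span. The log2 fold change was -0.56 ± 0.71 (SE), with a 95% interval of -2.12 to 1.0 and an adjusted p of 0.717 by edgeR, and it was 0.16 without CON lamb 1, -1.13 without SM20 lamb 1 and 0.59 with slow-fibre level in the model. By contrast SLC25A37 spanned 1.25-fold, SLC25A12 1.28-fold and SLC25A3 1.35-fold over the same lambs.

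**Figure D4:**
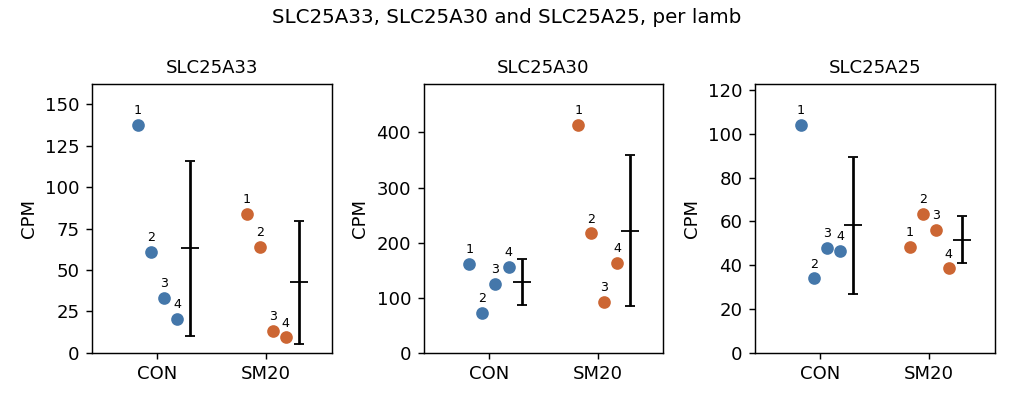
Level in CPM (linear axes from 0) of SLC25A33, SLC25A30 and SLC25A25; each point is a lamb, numbered within its diet, and the black bar is the mean with 1 SD (n = 4). CON lamb 1 is the highest of the 8 for SLC25A33 and SLC25A25, at 138 and 104 CPM, and SM20 lamb 1 is the highest for SLC25A30, at 414 CPM.

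Across the family CON lamb 4 had the highest level for 11 of the 30 carriers and the lowest for 0. CON lamb 1 had the lowest for 7, and SM20 lambs 1 and 4 for 6 each. The counts of the 33 members together made up 0.569%, 0.465%, 0.688% and 0.745% of the library in CON lambs 1 to 4. They made up 0.560%, 0.520%, 0.509% and 0.503% in SM20 lambs 1 to 4. These shares are of the raw library total, without TMM scaling, and SLC25A4 made up 51.7% to 61.1% of the carrier counts. On raw totals CON held both the highest and the lowest share, with the SM20 lambs close together between them. The TMM factor was 0.922 for CON lamb 2, 1.02 for SM20 lamb 3 and 1.01 for SM20 lamb 4. The order of the lowest lambs is therefore not the same on the TMM-scaled library size.

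**Figure D5:**
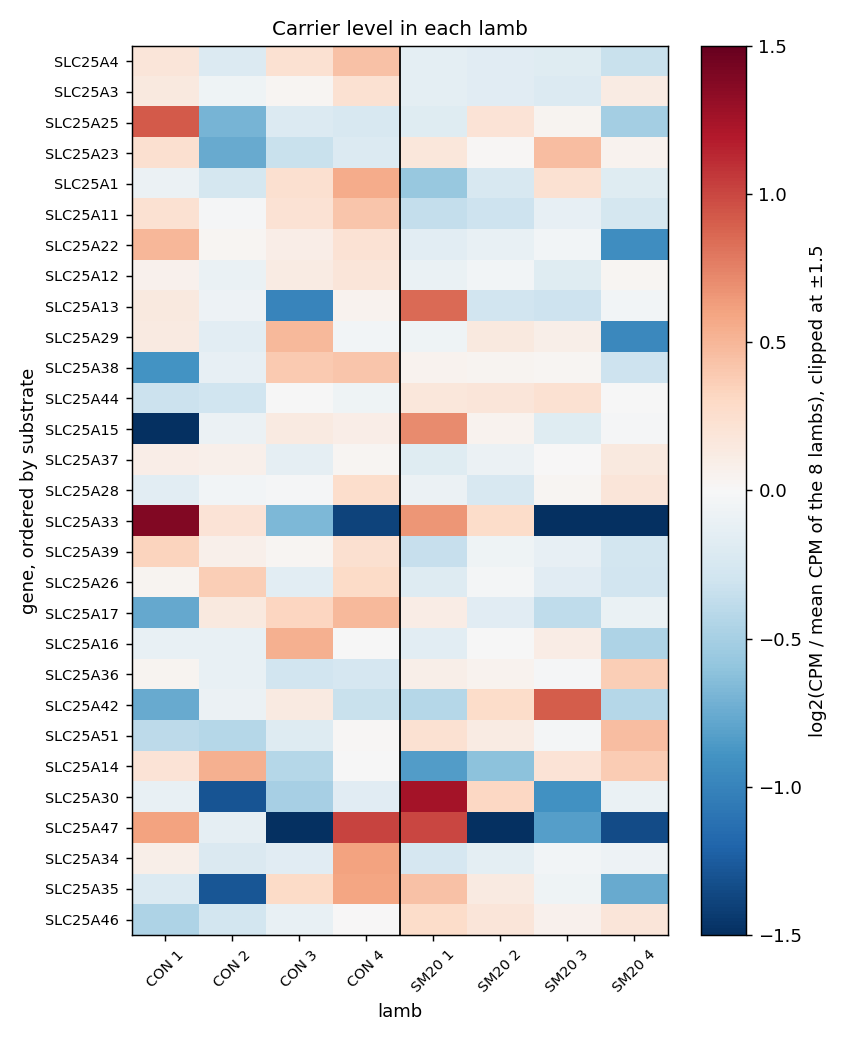
Level of 29 of the 30 tested carriers (vertical axis, ordered by substrate) in each lamb (horizontal axis), as log2 of CPM over the mean CPM of the 8 lambs; red is above and blue below the mean, and the black line parts the diets. SLC25A33 and SLC25A47 have strong colours in both diets, SLC25A15 is deep blue in CON lamb 1, and the row of SLC25A37 is nearly blank.

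Genes that work with the carriers were counted from fixed lists. EdgeR called 0 members in any of them (0.0511% of all genes), while DESeq2 called 1, MDH2 (5.00% of all genes). Over all genes 8.45% had lower and 9.84% higher values at an unadjusted p under 0.05. Family members under other symbols had 0 of 4 at an unadjusted p under 0.05, and the uncoupling protein gene UCP3 had 0.14 ± 0.34 (SE). In the route that inserts carriers into the inner membrane 1 of 6 had lower values at an unadjusted p under 0.05. This was TIMM10, a chaperone of the intermembrane space, whose CON mean was 28.3 ± 1.16 CPM and whose SM20 mean was 21.8 ± 2.63 CPM, without overlap (log2 fold change -0.38, adjusted p = 0.168 by edgeR). Of 5 genes for outer membrane channels, the pyruvate carrier and the permeability pore 3 had lower values at that level, beside 8.45% of all genes. They were both pyruvate carrier subunits, MPC1 (-0.37 ± 0.15) and MPC2 (-0.35 ± 0.15), and the matrix cyclophilin PPIF (-0.45 ± 0.17).

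Of the 6 enzymes of the malate-aspartate and glycerol phosphate shuttles 1 had lower values at an unadjusted p under 0.05 and 0 had higher ones. MDH2, the matrix malate dehydrogenase, had a CON mean of 1280.3 ± 194 CPM and an SM20 mean of 888 ± 39.1 CPM and was called by DESeq2 (adjusted p = 0.00801), as SLC25A11 was. The cytosolic partner MDH1 had -0.28 ± 0.13, GOT1 -0.38 ± 0.22 and GOT2 -0.19 ± 0.12 (SE). Of 3 genes of citrate handling 0 had an unadjusted p under 0.05, with ACLY, which splits the exported citrate, at 0.09 ± 0.21. Of 4 kinases that use or buffer the exported ATP 2 had lower values at that level, beside 8.45% of all genes: AK1 (-0.49 ± 0.17) and the mitochondrial creatine kinase CKMT2 (-0.33 ± 0.14).

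Of 10 genes that use or sense mitochondrial iron 3 had lower values at an unadjusted p under 0.05 and 1 had higher ones, where 8.45% and 9.84% of all genes did. The lower ones were GLRX5, which hands on iron-sulphur clusters (-0.38 ± 0.13, SE), FECH, which inserts iron into haem (-0.32 ± 0.13), and ALAS1, the first enzyme of haem synthesis (-0.35 ± 0.15). The higher one was IREB2, an iron-sensing regulator of messenger RNAs, at 0.56 ± 0.19. Their adjusted p-values by edgeR ran from 0.161 for GLRX5 to 0.242 for ALAS1.

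Markers of other cell types overlapped between the diets as summed levels. Adipocyte markers summed to 30.1 to 107 CPM in CON against 58.1 to 87.3 CPM in SM20 (5 of 6 in the table), and endothelial markers to 410.1 to 599 CPM and 369 to 553 CPM (6 of 6). Fibroblast markers summed to 1114 to 2039 CPM and 1171 to 2558 CPM (6 of 6), with SM20 lamb 1 the highest, and macrophage markers to 8.03 to 13.8 CPM and 8.42 to 11.3 CPM (4 of 5). None of these markers was at 0 in any lamb. Among the marker lists edgeR called 0 genes, and DESeq2 called the endothelial junction gene CLDN5 (-0.79 ± 0.24, SE) and the thin-filament gene NEB (0.65 ± 0.14). DESeq2 called 5.00% of all genes. Over all genes 8.45% had lower and 9.84% higher values at an unadjusted p under 0.05 by edgeR. At that level edgeR also had the endothelial receptor KDR (0.43 ± 0.17), the fast troponin TNNC2 (-0.36 ± 0.14) and the slow troponins TNNI1 (-0.65 ± 0.26), TNNT1 (-0.56 ± 0.23) and TNNC1 (-0.64 ± 0.27). Their part in the carrier values was not tested.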

How the data were processed

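The authors deposited whole-number read counts per gene symbol, with no normalization, for the 8 libraries. Per the labels' protocols the kits were RNeasy Mini and TruSeq Stranded mRNA. The submitters' processing notes name Trim Galore, cutadapt, STAR, featureCounts and DESeq2. Versions, build, annotation and strand setting are not given there, so no coordinates are printed, and reads of overlapping genes and close copies may be misassigned. All 33 carriers matched a symbol of the RefSeq annotation ARS-UI_Ramb_v3.0, used for names only. It lists 11 further SLC25A symbols that the counts used here do not hold.

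The main test was edgeR's quasi-likelihood F-test (4.0.16, R 4.3.3) with diet as the only term, TMM scaling and the default expression filter (minimum count 10), which kept 9779 genes, 30 of them carriers. P-values are two-sided and Benjamini-Hochberg adjusted over all genes tested, with a threshold of 0.05. The SE is the log2 fold change over the square root of F. Alternatives were DESeq2 1.42.0, other scalings, no filter, the mean log2 CPM (prior count 2) of slow-fibre genes as a covariate, and leaving out each library. The test was checked on simulated data.

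Lambs are numbered in accession order and the numbers pair nothing. Values in every lamb were given for the carriers of ADP/ATP, phosphate, citrate, aspartate/glutamate and iron, for those with an unadjusted p under 0.05 or called by DESeq2, and for the carrier with the highest mean CPM in each other class. From each other list up to 4 members with an unadjusted p under 0.05 were taken, and further partners were named after their values were seen. The counts cover all carriers, of which 1 is not reported here by itself. The members, classes and lists were chosen with earlier results of these data known.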

Additional observations from a re-analysis of the deposited data

Results flagged for a closer look

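In 60 sets of 4 lambs (30 carriers in 2 diets), 4 had a lamb far from the other 3, judged by its gap to the nearest lamb as a share of the whole range. Chance gives about 1 in 20 such sets. SM20 lamb 4 was low for SLC25A38, at 5.96 CPM against 7.57 to 7.69 CPM (share 0.934), and for SLC25A22, at 4.27 CPM against 7.31 to 7.91 CPM (share 0.835). CON lamb 3 was high for SLC25A16, at 3.17 CPM against 2.03 to 2.19 CPM (share 0.862). SM20 lamb 1 was high for SLC25A47, at 4.03 CPM against 0.59 to 1.13 CPM (share 0.844), and these values rest on few reads.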

How the results depend on the processing

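No paired analysis was run, since each library is a different lamb on 1 diet and the labels give no pairing. Over the whole table the 5 genes called became 1 with RLE size factors, 1 with upper-quartile scaling, 0 without the filter, 0 with the slow-fibre covariate and 489 with DESeq2, and leaving out a library gave 0 in every case. Carriers called stayed at 0 under the edgeR alternatives and were 1 with DESeq2, SLC25A11. The count of carriers at an unadjusted p under 0.05 ran from 3 to 7 when a library was left out (14.9% to 19.0% of all genes). It was 5 to 7 under the other settings (15.9% to 18.9% of all genes). The median log2 fold change of the carriers stayed negative, from -0.22 to -0.09, while that of all genes ran from -0.03 to 0.05. Of the 16 carriers that the rule gives in full, 4 changed sign somewhere: SLC25A13 without SM20 lamb 1, SLC25A25 without CON lamb 1 and with the slow-fibre covariate (0.24), SLC25A28 with library size alone (0.0024) and without CON lamb 4 or SM20 lamb 2, and SLC25A37 with library size alone (0.013) and without SM20 lamb 1. When a library was left out, their log2 fold changes ran from -0.054 to 0.41 for SLC25A13, from -0.37 to 0.27 for SLC25A25, from -0.11 to 0.045 for SLC25A28 and from -0.11 to 0.0044 for SLC25A37. SLC25A33, given outside the rule, turned positive without CON lamb 1 (0.16) and with the slow-fibre covariate (0.59). The cause was not tested. Spread between lambs limits the precision, with a median SE of 0.20 over all genes, and carriers near 1 CPM also rest on few reads.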

Other observations

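The library names carry a sample number, whose meaning is not given in the sources used here. In the order of that number SLC25A33 had 138 CPM at 16, 83.7 at 27, 61.0 at 28, 64.1 at 31, 33.1 at 32, 13.0 at 35, 20.2 at 43 and 9.23 at 48, with both diets mixed along the order. The rank correlation was -0.95 over the 8 lambs, a description chosen after the values were seen. Of the 9779 genes tested, 39 (0.399%) had a rank correlation with the number at least as far from 0, and SLC25A33 was the sole carrier among them. The next carrier was SLC25A28, at 0.83.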
